A study of Mus musculus with 27 samples.

Results

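The 9 genes described here encode the pore-forming subunits of AMPA and kainate receptors, 4 for AMPA receptors (Gria1 to Gria4) and 5 for kainate receptors (Grik1 to Grik5), and are named by gene family, so that the rule itself uses no measured value. They are 9 of the 52636 gene identifiers counted in 27 mouse RNA-sequencing libraries, and all 9 passed the filter on low values in every comparison. The libraries came from frontal cortex (12 libraries) and striatum (15 libraries) of adult mice aged about 2.5 months on the 129S1 background. The mice were either wild-type (6 frontal cortex and 7 striatum libraries) or homozygous for a 4.9 kb deletion of an enhancer that lies between H19 and Igf2 (Igf2enh-/-, 6 frontal cortex and 8 striatum libraries). The deletion was made in embryonic stem cells and is carried by every tissue, not by the brain alone, and a loxP site was left in its place when the Pgkneo cassette was removed with Hprt-CRE. Each frontal cortex group held 3 female and 3 male libraries, the wild-type striatum group 3 female and 4 male, and the Igf2enh-/- striatum group 4 of each sex. The labels number the libraries from 1 to 27 and do not tie a frontal cortex library to a striatum library, so all libraries were treated as separate samples.

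AMPA receptors carry most fast excitatory transmission between neurons, and each is a tetramer of GluA1 to GluA4 subunits. Kainate receptors are tetramers as well: the products of Grik1, Grik2 and Grik3 form channels by themselves, whereas those of Grik4 and Grik5 bind kainate with high affinity and need one of the other 3 subunits to form a channel. The cortex supplies glutamate synapses to the striatum, whose principal neurons are GABAergic medium spiny neurons. The GluA2 subunit, after RNA editing of a single codon in the pore loop (the Q/R site), makes an AMPA receptor nearly impermeable to calcium, and the same codon is edited in Grik1 and Grik2 mRNA.

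The stretch of mRNA around this codon is shown because it sets the calcium passage of the channel and because the edited Gria2, Grik1 and Grik2 share the codon CAG with the unedited Gria1 and Gria3, so that the genome alone does not tell them apart. The 54 bases are read from spliced GENCODE vM1 transcripts (NCBIM37), in the sense direction of the gene, with the Q/R-site codon in capitals.
Gria1: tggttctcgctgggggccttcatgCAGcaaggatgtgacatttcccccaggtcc
Gria2: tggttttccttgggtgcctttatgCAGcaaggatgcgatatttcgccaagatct
Gria3: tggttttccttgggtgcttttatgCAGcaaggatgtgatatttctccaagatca
Gria4: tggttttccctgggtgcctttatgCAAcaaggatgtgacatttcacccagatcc
Grik1: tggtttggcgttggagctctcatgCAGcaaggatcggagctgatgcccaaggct
Grik2: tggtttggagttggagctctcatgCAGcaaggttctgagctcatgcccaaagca
The codon lies at chr11:57056596-57056598 (+) in exon 11 of 16 for Gria1, at chr3:80510833-80510835 (-) in exon 11 of 17 for Gria2, and at chrX:38963442-38963444 (+) in exon 11 of 15 for Gria3. It lies at chr9:4464137-4464139 (-) in exon 12 of 17 for Gria4, at chr16:87940787-87940789 (-) in exon 11 of 16 for Grik1, and at chr10:48964135-48964137 (-) in exon 13 of 17 for Grik2. Over the 54 bases, Gria2 differed from Gria3 at 4 bases, from Gria4 at 7 and from Gria1 at 11, and Grik1 differed from Grik2 at 6. Gene counts do not measure editing at this codon, so the edited share was not analysed here.

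Each library held 23686945 to 33926904 counts assigned to genes. Levels are given as CPM, the counts of a gene per 1e+06 counts of the library, scaled by TMM, which sets libraries against each other by the bulk of their genes, and TMM factors ran from 0.979 to 1.04. Over all libraries, the member with the fewest counts was Grik1 (129 to 420 counts per library) and the one with the most was Gria2 (21680 to 35536), so relative counting error was greatest for Grik1. Igf2 stood at 51.8 to 107 CPM in wild-type and 88.0 to 172 CPM in Igf2enh-/- frontal cortex, and at 34.0 to 44.2 and 46.0 to 257 CPM in striatum, and the deleted enhancer itself lies outside the genes counted, so these values do not check the genotype labels. The region labels held up: Drd1, the dopamine receptor of direct-pathway medium spiny neurons, was at 6.60 to 11.2 CPM in frontal cortex and 143 to 401 CPM in striatum. Slc17a7, the vesicular glutamate transporter of cortical projection neurons, was at 1471 to 1673 CPM in frontal cortex and 13.7 to 748 CPM in striatum, a wide spread among striatal libraries. Library 20, a wild-type male striatum library, stood apart: its 18 medium spiny neuron markers summed to 6216 CPM against 9884 to 16161 CPM in the other wild-type striatum libraries, and its 14 cortical projection neuron markers summed to 3705 CPM, the highest of the 15 striatal libraries. Results that rest on library 20 are given with and without it. Library 15, an Igf2enh-/- female striatum library, held choroid plexus markers summing to 4530 CPM against at most 367 CPM in every other library. Of its member values, 8 of 9 lay within the range of the other 7 Igf2enh-/- striatum libraries, and its Gria2 (899.8 CPM) lay below theirs (947 to 1022 CPM).

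Between genes, levels were compared as CPM per kilobase of annotated exon. Gria2 was the most abundant member in both regions, at a mean of 132 CPM per kilobase in frontal cortex and 138 in striatum. In frontal cortex it was followed by Grik5 (69.9), Gria1 (54.0), Gria3 (36.2), Gria4 (21.2), Grik3 (11.6), Grik2 (7.32), Grik4 (5.84) and Grik1 (3.89). Neighbours in this order stood in the same order in 12 of 12 libraries, except that Grik5 exceeded Gria1 in 11 of 12. In striatum the order was Gria2, Grik5 (84.9), Gria1 (82.7), Gria3 (25.6), Grik2 (23.2), Grik3 (16.9), Gria4 (14.5), Grik4 (2.96) and Grik1 (2.25). There Grik5 exceeded Gria1 in 8 of 15 libraries and Gria3 exceeded Grik2 in 9 of 15, so neither pair could be ordered beyond the spread, whereas Grik2 exceeded Grik3 in 14 of 15, Grik3 exceeded Gria4 in 12 of 15 and Grik4 exceeded Grik1 in 14 of 15. Grik2 thus moved from the 7th to the 5th place between the regions. These places depend on the exon length used, 3836 bases for Grik5 and 3332 for Grik1, which include all annotated untranslated exons. Among all genes tested, Gria2 CPM exceeded 99.4% of genes in both regions, and Grik1 CPM exceeded 33.1% of genes in frontal cortex and 22.0% in striatum.

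The first comparison asked how the subunits differed between striatum and frontal cortex, separately in each genotype. In wild-type mice 4 of the 9 members were higher in striatum (Gria1, Grik2, Grik3 and Grik5), 4 were lower (Gria3, Gria4, Grik1 and Grik4), and Gria2 did not pass the test. The same 4 rose and the same 4 fell in Igf2enh-/- mice, whose libraries are different ones. Calls are edgeR quasi-likelihood tests with sex as a term, Benjamini-Hochberg adjusted over all genes tested, at a threshold of 0.05. The background was high: 65.4% of all 13554 genes tested in wild-type mice were called (33.8% higher and 31.6% lower), and 68.1% of 13595 in Igf2enh-/- mice (34.0% higher and 34.1% lower), so 8 of 9 is not far from what genes showed in general. The median log2 difference of the 9 members was 0.05 in wild-type and 0.07 in Igf2enh-/- mice, beside 0.02 and 0.0046 over all genes tested.

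**Figure D1:**
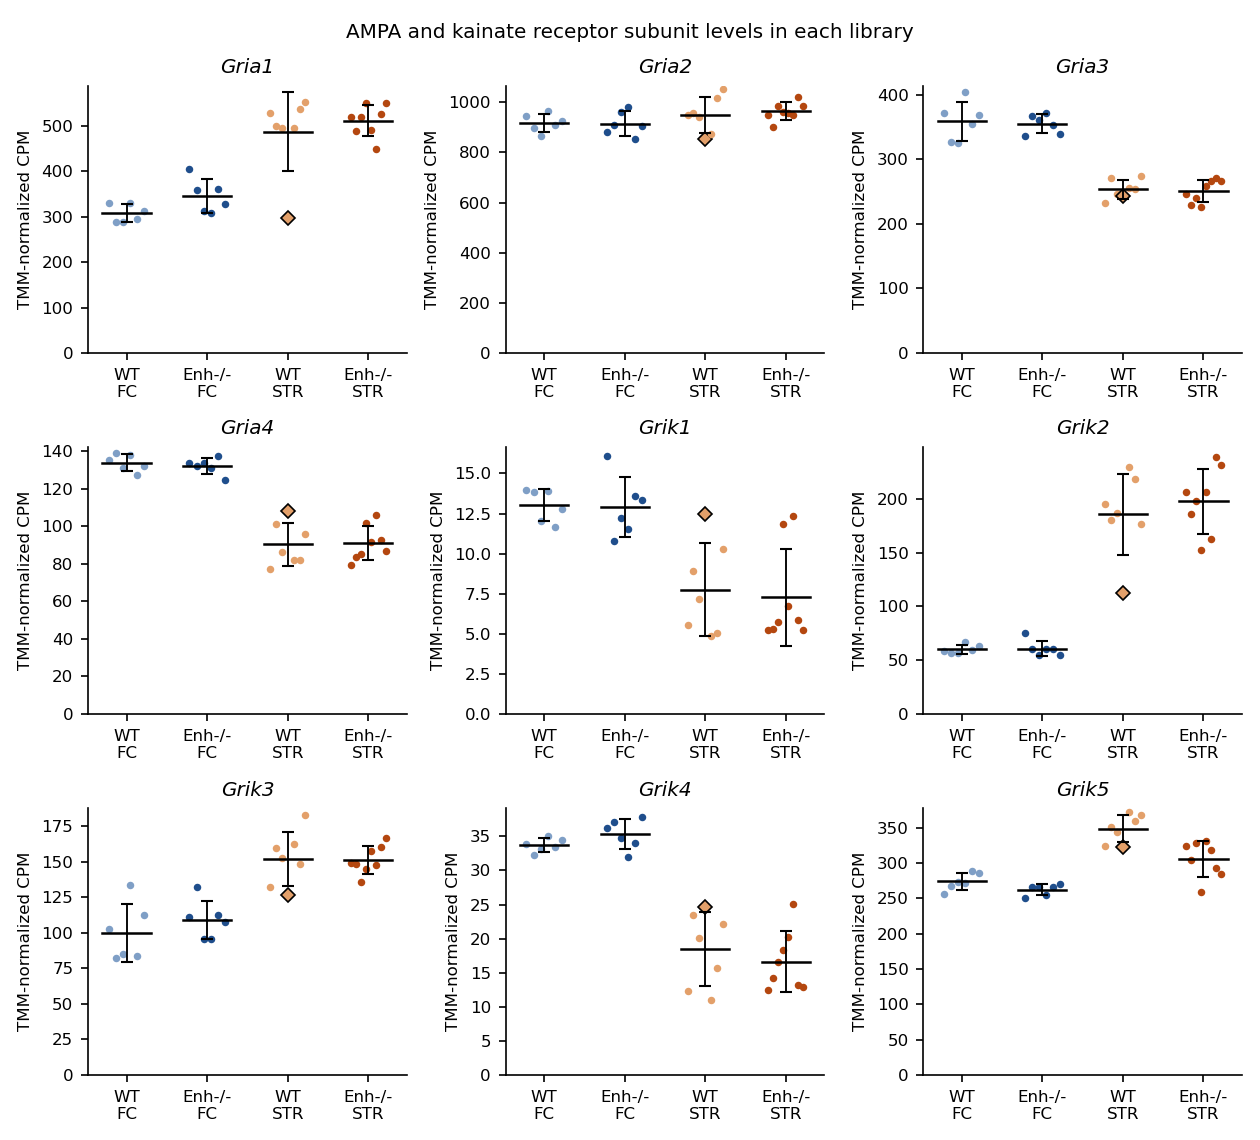
TMM-normalized CPM of each of the 9 members in every library (y axis, one panel per gene), by region and genotype, with bars at the mean ± SD and a black-edged diamond for library 20 (WT, wild-type; Enh-/-, Igf2enh-/-; FC, frontal cortex; STR, striatum). Grik2 was at 54.5 to 74.9 CPM in all frontal cortex libraries and at 113 to 239 CPM in all striatal libraries, whereas the Gria2 groups overlapped throughout.

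Of the AMPA receptor subunits, Gria1 encodes GluA1, the subunit most tied to activity-dependent insertion of receptors. In wild-type mice Gria1 had a lowest, median and highest value of 287, 303 and 331 CPM in frontal cortex and of 298, 501 and 553 CPM in striatum. In Igf2enh-/- mice it had 307, 343 and 406 CPM in frontal cortex and 449, 519 and 549.9 CPM in striatum. The wild-type groups overlapped through library 20 alone, whose 298 CPM lay among the frontal cortex values while the other 6 striatal libraries were at 495 CPM or more, and the Igf2enh-/- groups did not overlap. The log2 difference was 0.66 (SE 0.117, edgeR quasi-likelihood, adjusted p = 0.000266) in wild-type and 0.56 (SE 0.0649, adjusted p = 1.97e-06) in Igf2enh-/- mice.

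Gria2, the calcium-limiting subunit GluA2, was at 865, 917 and 964 CPM (lowest, median, highest) in wild-type frontal cortex and at 855, 950.5 and 1054 CPM in wild-type striatum. In Igf2enh-/- mice the values were 852, 907 and 983 CPM in frontal cortex and 899.8, 959 and 1022 CPM in striatum. The ranges of the regions lay over each other in both genotypes. The log2 difference had a 95% interval of -0.066 to 0.16 in wild-type mice (adjusted p = 0.447) and of -0.016 to 0.16 in Igf2enh-/- mice (edgeR quasi-likelihood, adjusted p = 0.133). With scaling by total counts instead of TMM, Gria2 passed in Igf2enh-/- mice at a log2 difference of 0.10 (adjusted p = 0.0298, range over the alternatives 0.0298 to 0.171).

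Gria3 and Gria4, which encode GluA3 and GluA4, were lower in striatum. Gria3 was at 325, 362 and 405 CPM in wild-type frontal cortex and at 232, 254 and 274 CPM in wild-type striatum, with 337, 357 and 372 CPM against 227, 253 and 271 CPM in Igf2enh-/- mice. Gria4 was at 127, 134 and 139 CPM in wild-type frontal cortex and at 77.2, 86.4 and 108 CPM in wild-type striatum, with 124, 133 and 138 CPM against 79.5, 89.4 and 106 CPM in Igf2enh-/- mice. Every striatal library was below every frontal cortex library for both genes in both genotypes. Gria3 fell by 0.51 on the log2 scale in each genotype (edgeR quasi-likelihood, adjusted p = 3.21e-06 in wild-type and 1.29e-07 in Igf2enh-/- mice). Gria4 fell by 0.57 in wild-type (adjusted p = 2.40e-05) and by 0.55 in Igf2enh-/- mice (adjusted p = 2.93e-07, the same test).

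Among the kainate receptor subunits that form channels by themselves, Grik2, which encodes GluK2, differed most. Grik2 was at 56.5, 59.0 and 67.1 CPM in wild-type frontal cortex and at 113, 187 and 229.7 CPM in wild-type striatum. In Igf2enh-/- mice it was at 54.5, 60.1 and 74.9 CPM in frontal cortex and at 152, 202 and 239 CPM in striatum. No library of one region reached the values of the other. The log2 difference was 1.62 (SE 0.133, edgeR quasi-likelihood, adjusted p = 6.75e-07) in wild-type and 1.70 (SE 0.101, adjusted p = 2.79e-09) in Igf2enh-/- mice, which placed Grik2 among the 2.92% and 2.93% of genes with the greatest difference in size.

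Grik1, which encodes GluK1, went the other way from low levels. It was at 11.7, 13.3 and 14.0 CPM in wild-type frontal cortex and at 4.84, 7.16 and 12.5 CPM in wild-type striatum, with 10.8, 12.8 and 16.1 CPM against 5.22, 5.80 and 12.3 CPM in Igf2enh-/- mice. The striatal libraries spread widely and the highest of them reached the frontal cortex range in both genotypes. Grik1 fell by 0.76 on the log2 scale in wild-type mice (edgeR quasi-likelihood, adjusted p = 0.00564) and by 0.86 in Igf2enh-/- mice (adjusted p = 0.000924). Grik3, which encodes GluK3, was at 82.4, 94.1 and 134 CPM in wild-type frontal cortex and at 126, 153 and 183 CPM in wild-type striatum, with 95.4, 109 and 132 CPM against 136, 149 and 167 CPM in Igf2enh-/- mice. Its groups overlapped in wild-type but not in Igf2enh-/- mice, and its log2 differences were 0.60 (edgeR quasi-likelihood, adjusted p = 0.000438) and 0.47 (adjusted p = 2.21e-05).

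The high-affinity kainate receptor subunits moved in opposite directions. Grik4, which encodes GluK4, was at 32.2, 33.6 and 35.1 CPM in wild-type frontal cortex and at 11.0, 20.1 and 24.7 CPM in wild-type striatum, with 31.9, 35.5 and 37.8 CPM against 12.4, 15.4 and 25.1 CPM in Igf2enh-/- mice. All striatal libraries lay below all frontal cortex libraries, and Grik4 fell by 0.87 on the log2 scale in wild-type mice (edgeR quasi-likelihood, adjusted p = 0.000625) and by 1.10 in Igf2enh-/- mice (adjusted p = 1.84e-06). Grik5, which encodes GluK5, was at 257, 273 and 289 CPM in wild-type frontal cortex and at 323, 352 and 372 CPM in wild-type striatum, with no overlap. In Igf2enh-/- mice it was at 250.5, 266 and 271 CPM in frontal cortex and at 259.5, 311 and 332 CPM in striatum, and these ranges met. The log2 difference of Grik5 was 0.34 (SE 0.0392, edgeR quasi-likelihood, adjusted p = 9.23e-06) in wild-type and 0.22 (SE 0.0507, adjusted p = 0.00151) in Igf2enh-/- mice.

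Counted over the members, the regions did not overlap for 5 of 9 in wild-type mice (Gria3, Gria4, Grik2, Grik4 and Grik5) and for 6 of 9 in Igf2enh-/- mice (Gria1, Gria3, Gria4, Grik2, Grik3 and Grik4). Over all genes tested the groups did not overlap for 37.6% and 41.7%. Markers of other cells moved with the region as well. In wild-type mice 15 of 15 tested medium spiny neuron markers and 8 of 8 oligodendrocyte markers were higher in striatum, and 10 of 10 tested cortical projection neuron markers were lower. Lower too were 9 of 9 tested meningeal fibroblast markers, and higher were 5 of 6 oligodendrocyte precursor and 6 of 8 microglia markers. Other lists were mixed or mostly not called (GABAergic interneuron 3 higher and 5 lower of 9, astrocyte 1 and 1 of 8, endothelium 1 and 0 of 7, choroid plexus 1 and 0 of 2 tested). The 18 medium spiny neuron markers summed to 835 to 949 CPM in frontal cortex and 6216 to 16492 CPM in striatum, the 14 cortical projection neuron markers to 4846 to 5878 and 1518 to 3705 CPM, and the 8 oligodendrocyte markers to 1014 to 2178 and 5048 to 10901 CPM. None of the medium spiny neuron, cortical projection neuron and oligodendrocyte markers was at 0 in all libraries of a group. In bulk tissue, fewer cells of a type and less RNA per cell cannot be told apart.

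**Figure D2:**
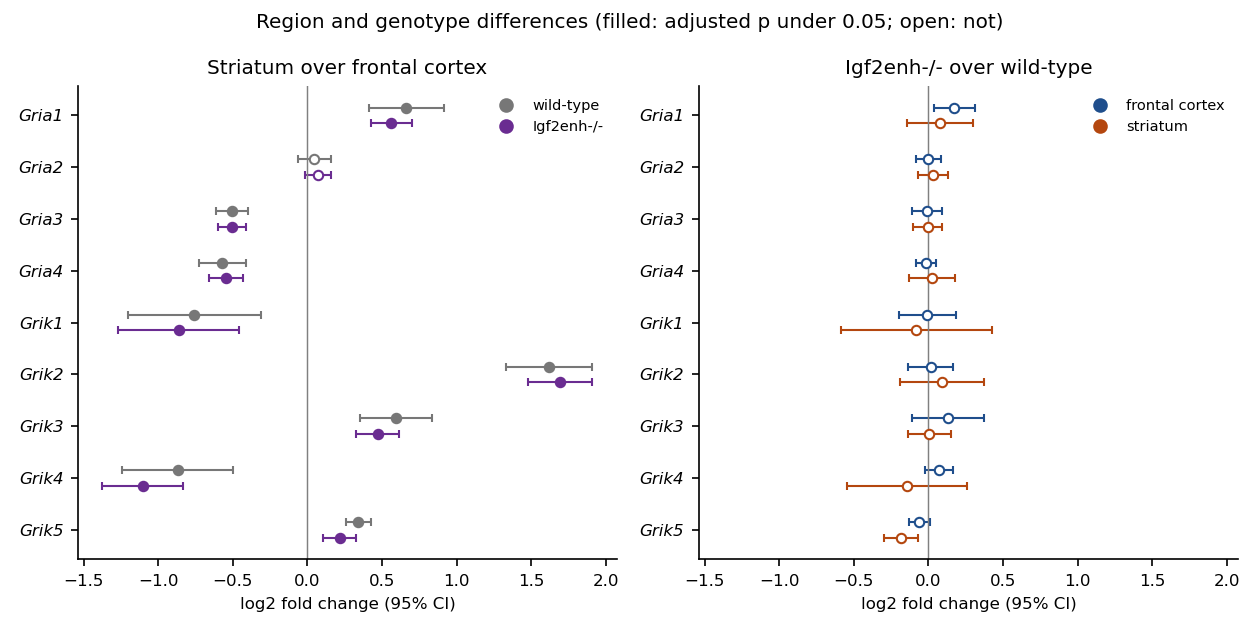
Log2 differences of the 9 members (x axis) with 95% intervals for the 2 region comparisons and the 2 genotype comparisons, filled where the edgeR quasi-likelihood adjusted p was below 0.05. The region differences ran from -1.10 (Grik4, Igf2enh-/-) to 1.70 (Grik2, Igf2enh-/-), and no genotype difference is filled.

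Shares describe the make-up of each receptor family apart from its total: for each library, counts per kilobase of exon were summed over the 4 AMPA or the 5 kainate members and each member was given as a percentage. In wild-type mice the Gria1 share of AMPA transcripts rose from 21.1% ± 0.506 (SD, n = 6) in frontal cortex to 31.1% ± 3.65 (SD, n = 7) in striatum, while the Gria3 share went from 15.1% to 10.1% and the Gria4 share from 8.89% to 5.67%. Of kainate transcripts, the Grik2 share rose from 7.32% ± 0.280 to 16.4% ± 2.76, while the shares of Grik1 (3.94% to 1.74%), Grik4 (5.73% to 2.33%) and Grik5 (71.8% to 67.0%) fell. Each of these 7 shares passed in wild-type and in Igf2enh-/- mice by an exact two-sided permutation test, with p-values adjusted over the 36 share comparisons of 9 members in 4 contrasts. Adjusted p was 0.00839 for Grik5 in wild-type mice and 0.00343 or less for the other 6 shares in both genotypes and for Grik5 in Igf2enh-/- mice. The smallest exact p that the design allowed was 0.00117 in wild-type and 0.000666 in Igf2enh-/- mice. Grik5 CPM thus was higher in striatum while its share of kainate transcripts was lower.

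In Igf2enh-/- mice the Gria1 share went from 23.3% ± 2.50 (SD, n = 6) to 32.2% ± 1.48 (SD, n = 8), the Grik2 share from 7.53% to 19.0% and the Grik5 share from 70.0% to 63.5%. The Gria2 share was 54.9% in wild-type frontal cortex and 53.2% in wild-type striatum (exact permutation p = 0.0746, adjusted 0.141), and 53.5% and 52.6% in Igf2enh-/- mice (adjusted p = 0.435 by the same exact test). Without library 20 the wild-type difference in the Gria2 share was -2.41 points (exact permutation, adjusted p = 0.00487). The Grik3 share did not pass either, at 11.2% and 12.5% in wild-type (exact permutation, adjusted p = 0.225) and 12.4% and 13.5% in Igf2enh-/- mice (adjusted p = 0.182). With coding length in place of exon length, the Gria2 share difference turned in both genotypes and the Grik3 share difference turned in Igf2enh-/- mice, and in Igf2enh-/- mice both also turned with shares of raw counts. Sizes depended on this choice too: in wild-type mice the Grik2 share difference was 9.12 points by exon length, 13.3 by raw counts and 13.8 by coding length, and that of Grik5 was -4.80, -7.99 and -8.16 points.

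**Figure D3:**
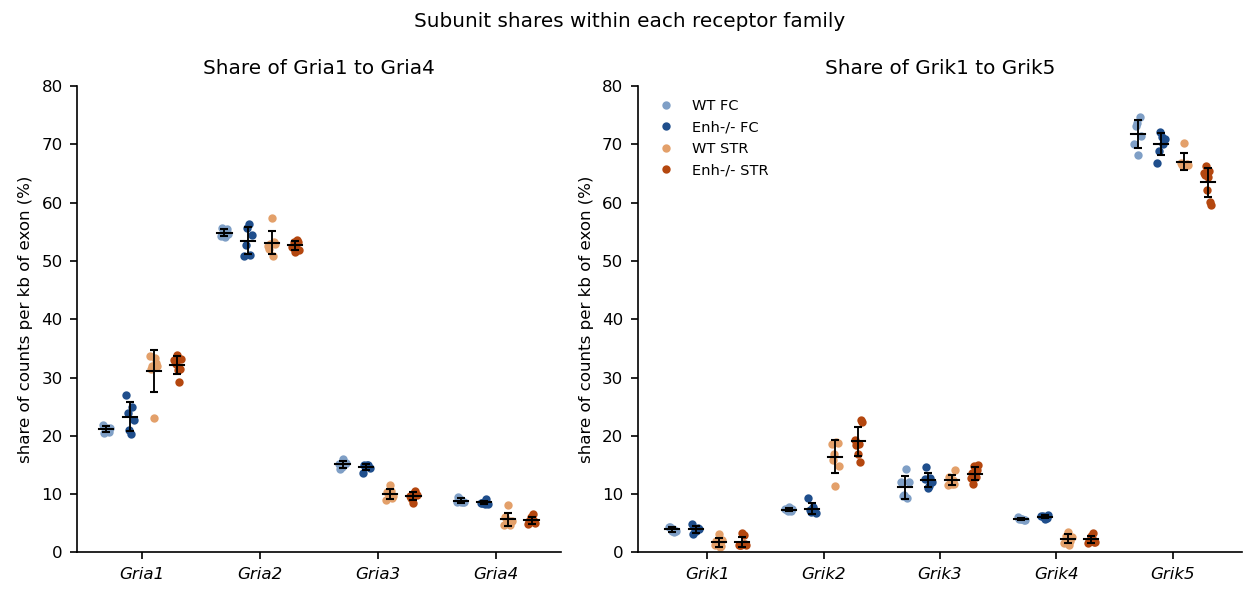
Share of each member in the AMPA transcripts (left) and in the kainate transcripts (right) as percent of counts per kilobase of exon (y axis), with a point for each library and bars at the mean ± SD of the 4 groups. The Gria1 and Grik2 shares were greater in the striatal groups, at 31.1% and 16.4% in wild-type striatum against 21.1% and 7.32% in wild-type frontal cortex.

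The second comparison asked whether the enhancer deletion changed subunit levels within a region. By the edgeR quasi-likelihood test with Benjamini-Hochberg adjustment, 0 of 9 members passed in frontal cortex and 0 of 9 in striatum. At an unadjusted p under 0.05 there was 1 of 9 in each, beside 13.5% of all genes tested in frontal cortex and 10.1% in striatum, and edgeR's likelihood ratio test and DESeq2 also called 0 of 9 in each. The background was low: 0.380% of 13936 genes were called in frontal cortex and 0.0360% of 13875 in striatum. No member's genotype groups were apart in either region, beside 1.25% of genes in frontal cortex and 0.209% in striatum. The median log2 difference of the members was 0.00063 in frontal cortex and 0.0064 in striatum, beside 0.00073 and 0.00040 over all genes tested.

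In frontal cortex the member with an unadjusted p under 0.05 was Gria1, with a log2 difference of 0.17 (95% interval 0.035 to 0.31, edgeR quasi-likelihood adjusted p = 0.259). The Igf2enh-/- values of 307 to 406 CPM lay over the wild-type values of 287 to 331 CPM in part, and 3 of 6 Igf2enh-/- libraries exceeded all wild-type libraries. The highest of these was library 1, at 406 CPM, which also had the highest Grik2 (74.9 CPM) and Grik1 (16.1 CPM) of the frontal cortex libraries and the lowest summed oligodendrocyte markers (1014 CPM) and cortical projection neuron markers (4846 CPM). Leaving out 1 library at a time, the Gria1 difference ran from 0.12 to 0.21 (edgeR quasi-likelihood, adjusted p from 0.151 to 0.441). Several marker lists held genes with an unadjusted p under 0.05 by genotype in frontal cortex, beside 13.5% of all genes tested. These were 4 of 7 endothelium, 4 of 8 microglia, 4 of 14 cortical projection neuron and 4 of 15 tested medium spiny neuron markers. None of them was called. Of the 11 meningeal fibroblast markers, 6 had such a p and 1 was called higher, beside 0.380% of all genes tested called in either direction. The meningeal fibroblast markers summed to 126 to 286 CPM in wild-type and 193 to 346 CPM in Igf2enh-/- mice, the highest being library 1. Igf2, the gene beside the deleted enhancer, is 1 of these 11 markers. Its median was 71.3 CPM in wild-type and 119 CPM in Igf2enh-/- frontal cortex, beside medians of 174 and 251 CPM for the whole sum. The part of these markers in the Gria1 values was not tested. The other log2 differences in frontal cortex were 0.13 for Grik3 (95% interval -0.11 to 0.37), 0.07 for Grik4, -0.06 for Grik5, and between -0.015 and 0.016 for Gria2, Gria3, Gria4, Grik1 and Grik2.

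In striatum the member with an unadjusted p under 0.05 was Grik5, with a log2 difference of -0.18 (95% interval -0.30 to -0.068, edgeR quasi-likelihood adjusted p = 0.280). Wild-type striatum had 323 to 372 CPM of Grik5 and Igf2enh-/- striatum 259.5 to 332 CPM, so that 5 of 8 Igf2enh-/- libraries lay below all wild-type libraries. Leaving out 1 library at a time gave -0.21 to -0.15 (edgeR quasi-likelihood, adjusted p from 0.222 to 0.503). The intervals of the least counted members were wide: the log2 difference of Grik1 was -0.08 with a 95% interval of -0.58 to 0.42, and that of Grik4 was -0.14 with one of -0.54 to 0.26. For Gria2 and Gria3 the intervals were -0.069 to 0.13 and -0.10 to 0.093.

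The Grik5 share of kainate transcripts in striatum differed by genotype. It was 66.3%, 66.5% and 70.3% (lowest, median, highest) in wild-type and 59.6%, 64.6% and 66.3% in Igf2enh-/- striatum. The groups did not overlap, the lowest wild-type library being at 66.35% and the highest Igf2enh-/- library at 66.29%. The means were 67.0% ± 1.44 (SD, n = 7) and 63.5% ± 2.53 (SD, n = 8), a difference of -3.57 points (exact permutation p = 0.000311, the smallest the design allowed, adjusted p = 0.00323). The highest wild-type value came from library 20. Leaving out each of the 27 libraries in turn gave -3.98 to -3.03 points (exact permutation, adjusted p from 0.0030 to 0.0043). Only the fits without 1 of the 15 striatum libraries could change this difference. With shares of raw counts and with coding length the difference was -4.01 and -4.02 points, both with adjusted p = 0.00320 by the exact permutation test. No gene of the cell type marker lists was called by genotype in striatum by edgeR's quasi-likelihood test, beside 0.0360% of all genes tested. An unadjusted p under 0.05 was seen for 3 of 8 oligodendrocyte, 4 of 7 endothelium and 2 of 9 tested meningeal fibroblast markers. The same held for 1 of 6 oligodendrocyte precursor and 1 of 8 microglia markers, beside 10.1% of all genes tested. The 8 oligodendrocyte markers had log2 differences of -0.37 to -0.26, with 3 at an unadjusted p under 0.05 and 0 called by edgeR's quasi-likelihood test, and summed to 5048 to 10901 CPM in wild-type and 5149 to 6735 CPM in Igf2enh-/- striatum. The 11 meningeal fibroblast markers summed to 58.4 to 79.9 CPM in wild-type and 78.6 to 95.7 CPM in Igf2enh-/- striatum, library 15 aside at 341 CPM. Igf2, the gene beside the deleted enhancer, is 1 of these 11 markers. Its median was 37.7 CPM in wild-type and 51.9 CPM in Igf2enh-/- striatum, beside medians of 70.4 and 83.8 CPM for the whole sum. The sum therefore does not measure these cells apart from Igf2. The part of these markers in the Grik5 share was not tested. The Grik2 share was 2.59 points higher in Igf2enh-/- striatum, which did not pass (exact permutation, adjusted p = 0.148). In frontal cortex the Grik5 share was 71.8% and 70.0% (exact permutation, adjusted p = 0.260).

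The other share that passed by genotype was that of Grik4 in frontal cortex, at 5.73% ± 0.154 (SD, n = 6) in wild-type and 6.11% ± 0.251 (SD, n = 6) in Igf2enh-/- mice (exact permutation p = 0.0130, adjusted p = 0.0292). The groups overlapped, and the call was lost with shares of raw counts (adjusted p = 0.117) and with coding length (adjusted p = 0.146), by the same exact test. It was also lost in 6 of the 27 fits that left out 1 library. Only the fits without 1 of the 12 frontal cortex libraries could change this difference.

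Whether the region difference depended on genotype was tested with an interaction term. No member passed (log2 interactions from -0.22 for Grik4 to 0.08 for Grik2, edgeR quasi-likelihood adjusted p = 1.00 for all 9), and 0 of 9 had an unadjusted p under 0.05. Of all 13414 genes 0% were called (405 had an unadjusted p under 0.05, and the likelihood ratio test and DESeq2 also called 0). The interaction of Grik5, which was 0.34 higher in wild-type and 0.22 higher in Igf2enh-/- striatum, was -0.13 on the log2 scale (95% interval -0.26 to 0.011). Nor did any member pass for sex, where adjusted p was 0.773 or more in frontal cortex and 0.478 or more in striatum (background 0.0431% and 0.0432%). In the interaction of sex and genotype 0 of 9 members passed in either region by edgeR's quasi-likelihood test, its likelihood ratio test or DESeq2. At an unadjusted p under 0.05 there were 0 of 9 in each region, beside 6.36% of all genes tested in frontal cortex and 2.56% in striatum. After adjustment, 0.0215% of the frontal cortex genes and 0% of the striatal genes passed this interaction. Of the striatal genes 355 had an unadjusted p under 0.05, the likelihood ratio test called 1 and DESeq2 called 2. The largest such estimate in size was 0.53 for Grik1 in striatum, with a 95% interval of -0.49 to 1.54.

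Among striatal libraries, 5 members moved with the summed level of the 18 medium spiny neuron markers, a measure added after the data had been seen. Across 15 libraries, with genotype and sex as terms, the log2 change per doubling of this sum was 0.73 for Grik2 (SE 0.0746, edgeR quasi-likelihood, adjusted p = 5.55e-06) and 0.38 for Gria1 (SE 0.127, adjusted p = 0.0332). It was -0.36 for Gria4 (SE 0.0558, edgeR quasi-likelihood, adjusted p = 0.000210), -0.86 for Grik4 (SE 0.192, adjusted p = 0.00321) and -1.26 for Grik1 (SE 0.162, adjusted p = 3.99e-05). These 5 of 9 members were called, against a background of 30.6% of genes. Of the 18 markers 17 were called upward, but each marker is part of the sum, so these calls do not check it. The cortical projection neuron markers were high where this sum was low in some libraries but not in others. They summed to 3705 CPM in library 20 and 2995 CPM in library 23, whose medium spiny neuron markers summed to 6216 and 9793 CPM. In library 24 they summed to 1518 CPM, beside 14381 CPM of medium spiny neuron markers. In libraries 19 and 26 they summed to only 1820 and 2248 CPM, beside 8784 and 9884 CPM of medium spiny neuron markers. No slope on the cortical projection neuron markers was fitted, so their part in these 5 slopes was not tested.

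The sign of each of these 5 slopes was that of the gene's difference between striatum and frontal cortex. The other 4 members did not pass, with slopes of 0.06 for Gria2, 0.05 for Gria3, 0.16 for Grik3 and 0.12 for Grik5 (edgeR quasi-likelihood, adjusted p from 0.225 to 0.642), although Gria3, Grik3 and Grik5 did differ between the regions. The slope of Gria3 was upward although the gene was lower in striatum. Without library 20, 4 of 9 members were called against a background of 24.9%: Grik2 (0.68, adjusted p = 0.000194), Gria4 (-0.42), Grik1 (-1.68) and Grik4 (-1.20). Gria1 was then at 0.04 (edgeR quasi-likelihood, adjusted p = 0.818), so its slope rested on library 20. With the marker sum as a term in the striatal genotype comparison, again added after the data had been seen, the genotype difference of Grik5 was -0.19 (adjusted p = 0.113), that of Grik1 went from -0.08 to 0.05, and 0 of 9 members were called.

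**Figure D4:**
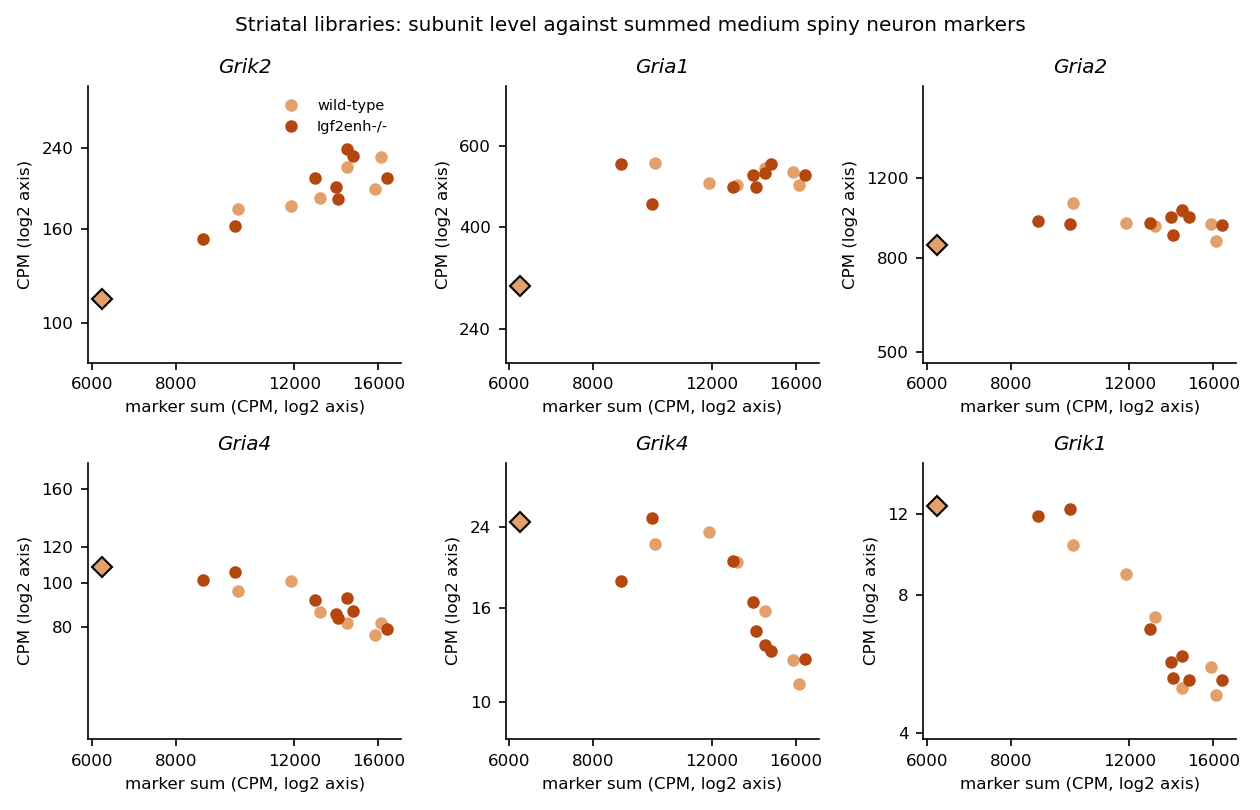
CPM of Grik2, Gria1, Gria2, Gria4, Grik4 and Grik1 in the 15 striatal libraries (y axis, log scale) against the summed CPM of 18 medium spiny neuron markers (x axis, log scale), by genotype, with library 20 as a black-edged diamond. Grik2 is higher and Grik1 and Grik4 are lower further along the x axis from 6216 to 16492 CPM, and the Gria1 value of library 20 (298 CPM) lies below the other 14 libraries.

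The partners of these receptors were taken from hand-written lists. Of 18 AMPA receptor auxiliary subunits, which set the trafficking and gating of AMPA receptors, 8 were higher and 7 lower in wild-type striatum. In Igf2enh-/- striatum 8 were higher and 8 lower. Their medians on the log2 scale were -0.0064 in wild-type and -0.11 in Igf2enh-/- mice. Over all genes tested 33.8% were called higher and 31.6% lower in wild-type mice, and 34.0% and 34.1% in Igf2enh-/- mice. Cacng4, the transmembrane AMPA receptor regulatory protein gamma-4, was at 27.7 to 32.4 CPM in wild-type frontal cortex and 106 to 229.8 CPM in wild-type striatum, a log2 difference of 2.60 (edgeR quasi-likelihood, adjusted p = 9.22e-08). Shisa7 and Shisa9, auxiliary subunits of the Shisa family, were 0.77 and 0.74 higher, and Cnih3, a cornichon protein that slows receptor closing, fell by 1.69 on the log2 scale in wild-type mice. These 4 genes had log2 differences of 2.47, 0.67, 0.73 and -1.81 in Igf2enh-/- mice.

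Both kainate receptor auxiliary subunits were higher in striatum, beside 33.8% of all genes tested in wild-type and 34.0% in Igf2enh-/- mice. Neto1 was at 60.7 to 78.6 CPM in wild-type frontal cortex and 85.3 to 156 CPM in wild-type striatum, a log2 difference of 0.94 (edgeR quasi-likelihood, adjusted p = 2.59e-05). Neto2 was at 94.97 to 109 and 143 to 279 CPM, a log2 difference of 1.18 (adjusted p = 9.25e-06, the same test). In Igf2enh-/- mice their differences were 1.00 and 1.34. The Neto ranges did not overlap between the regions in wild-type mice, as for Grik2 and for 37.6% of all genes tested.

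Of 17 scaffold and trafficking partners tested, 7 were higher and 8 lower in each genotype. Over all genes tested 33.8% were higher and 31.6% lower in wild-type mice, and 34.0% and 34.1% in Igf2enh-/- mice. Akap5, the kinase and phosphatase anchor at the postsynaptic membrane, was 1.28 higher on the log2 scale in both genotypes. The neuronal pentraxin Nptx1 fell by 1.72, its receptor Nptxr by 2.24 and C1ql3, a secreted synaptic C1q-like protein, by 2.79 in wild-type mice, and they differed by -1.92, -2.45 and -3.02 in Igf2enh-/- mice. Adar, Adarb1 and Adarb2 were all lower in striatum, as were 31.6% of all genes tested in wild-type mice. Adarb1, the enzyme that edits the Gria2 Q/R site, fell by 0.38 on the log2 scale in wild-type mice (edgeR quasi-likelihood, adjusted p = 0.000571). Adarb2 fell by 0.83 (adjusted p = 1.51e-05) and Adar by 0.14 (adjusted p = 0.0223) by the same test. By genotype, 0 genes of these 4 lists were called in either region by edgeR's quasi-likelihood test. At an unadjusted p under 0.05 there were 5 of 18 AMPA auxiliary subunits and 1 of 17 scaffold partners in frontal cortex, beside 13.5% of all genes tested there, and none in striatum, beside 10.1%.

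**Figure D5:**
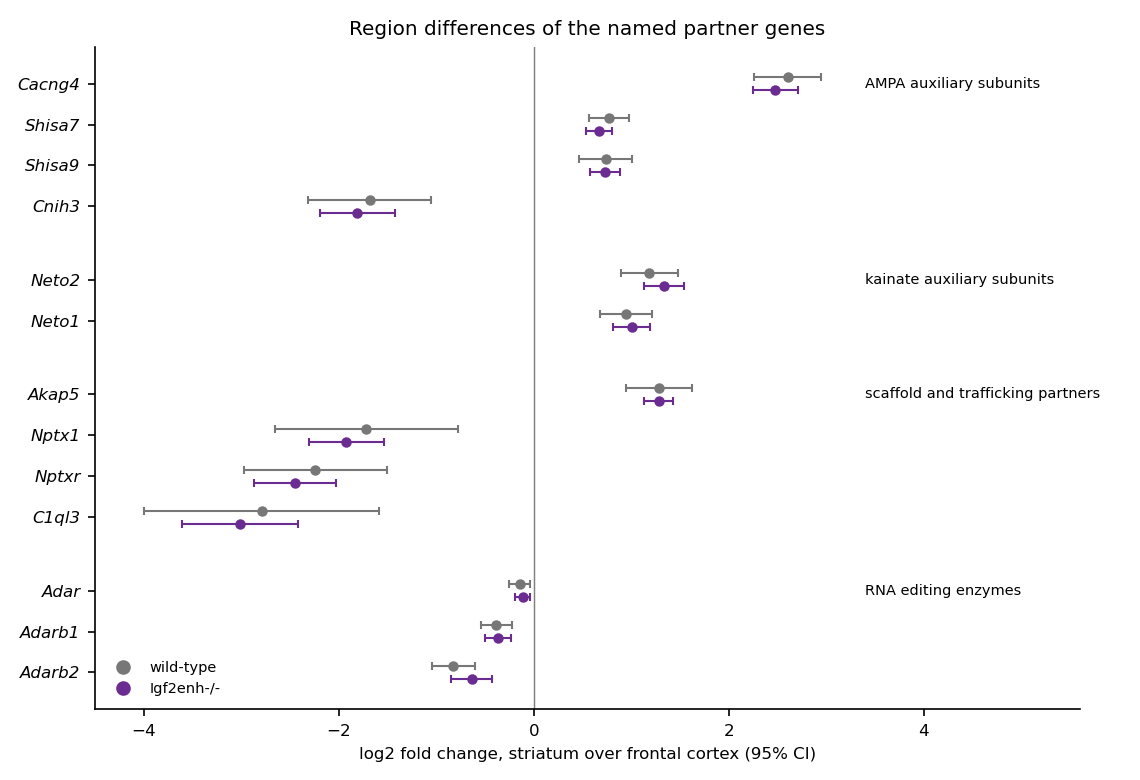
Log2 striatum minus frontal cortex difference of the named partner genes (x axis) with 95% intervals in wild-type and Igf2enh-/- mice, grouped by list. Both Neto genes lie above 0, Adar, Adarb1 and Adarb2 lie below 0, and the values of the genotypes lie side by side for each gene.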

How the data were processed

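The deposited values are raw counts of reads per gene, which the authors made by demultiplexing with bcl2fastq 1.9.0, trimming with Trim Galore 0.5.0 and aligning with STAR to GRCm38 from ribosomal-RNA-depleted total RNA. The strand setting of the counting is not given in the sources used here. Symbols, exon lengths and positions came from GENCODE vM1 (NCBIM37), not the authors' build, for 32688 of 52636 identifiers.

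A gene entered a comparison if no library in it fell under 1 CPM. After TMM scaling, edgeR 4.0.16 (R 4.3.3) fitted glmQLFit and glmQLFTest with sex as a term, with Benjamini-Hochberg adjustment over all genes tested and a threshold of 0.05. Shares were compared with exact two-sided permutation tests in scipy 1.17.1. The code was tested on simulated data. Alternatives were the likelihood ratio test, DESeq2 1.42.0, other scalings and filters, models without sex, and leaving out each library. Members, lists and comparisons were chosen with earlier results of these data known. All 9 members are named. Of the partner lists, both kainate auxiliary subunits, Adar, Adarb1, Adarb2 and any gene called by genotype are named. So are up to 4 genes per list with the greatest wild-type region difference among those called in both genotypes. No pair of libraries held identical counts. Within a region each library is a separate mouse by the study's stated numbers of mice, and whether mice gave tissue to both regions is not given. The human samples, protein data and other parts of the study were not analysed here. The results of 1 further partner list are not reported here.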

Additional observations from a re-analysis of the deposited data

Results flagged for a closer look

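Among 72 sets of values (9 members, as CPM and as share, in 4 groups), 7 held a highest or lowest library set apart from the rest by Dixon's test, where chance alone marks about 1 in 20. Of these, 5 came from library 20 in wild-type striatum: Gria1 at 298 CPM with the next library at 495, the Gria1 share at 23.0% with the next at 31.4%, the Gria2 share at 57.4% with the next at 53.3%, the Gria4 share at 8.06% with the next at 6.10%, and the Grik5 share at 70.3% with the next at 66.7%. The same library had the lowest medium spiny neuron marker sum (6216 CPM) and the highest oligodendrocyte marker sum (10901 CPM) of the striatal libraries, and the part of these in its member values was not tested. In Igf2enh-/- frontal cortex, Grik2 stood at 74.9 CPM in library 1 with the next library at 60.3 CPM, and the Gria4 share at 9.14% in library 9 with the next at 8.59%.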

How the results depend on the processing

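No paired analysis was run because the labels do not tie a frontal cortex library to a striatum library. Whether mice gave tissue to both regions is not given, so any such pairing is left out of the region and interaction tests. The region calls were 8 of 9 members in both genotypes under every left-out library and under every alternative but total-count scaling, which called 9 in Igf2enh-/- mice. Without a filter on low values, 1 member passed by genotype in frontal cortex (Gria1, 0.17, adjusted p = 0.0345 by edgeR's quasi-likelihood test, 0.0345 to 0.277 over the alternatives) and 1 in its sex by genotype interaction (Grik3, -0.38, adjusted p = 0.00291).

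Over all genes, the 53 called by genotype in frontal cortex became 232 with the likelihood ratio test, 242 with DESeq2, 459 without a filter, and 8 (without library 10) to 96 (without library 1) with 1 library left out. The 5 in striatum became 56, 112 and 10 in that order, 13 with filterByExpr, 3 without sex, 59 with the marker term and 3 to 8 with 1 library left out (8 without library 23). The sex by genotype interaction went from 3 to 12, 8 and 310 in frontal cortex (2 to 5 with 1 library left out) and from 0 to 1 and 2 in striatum with the likelihood ratio test and DESeq2 (0 to 2). Members called by the marker slope went from 5 to 4 without library 20.

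Signs turned in differences near 0: by genotype, Gria2 in frontal cortex (-0.0015 with filterByExpr and without a filter), Grik3 in striatum (-0.00075 with filterByExpr, -0.0066 with the marker term) and Grik1 in striatum (0.051 with the marker term). Between regions, the Gria2 share difference was 0.020 points by coding length in wild-type mice, and 0.702 by raw counts and 0.780 by coding length in Igf2enh-/- mice, where that of Grik3 was -0.284 and -0.516. With 1 library left out, frontal cortex genotype differences ran from -0.020 to 0.025 for Gria2, -0.031 to 0.022 for Gria3, -0.031 to 0.00012 for Gria4, -0.086 to 0.049 for Grik1 and -0.062 to 0.048 for Grik2. In striatum they ran from -0.0081 to 0.11 for Gria1, -0.030 to 0.014 for Gria3, -0.0099 to 0.069 for Gria4, -0.20 to 0.039 for Grik1 and -0.035 to 0.046 for Grik3. Without library 20 the marker slopes of Gria2 and Grik3 were -0.051 and -0.00042. The causes of these changes were not tested.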
